A study of Mus musculus with 12 samples.

Results

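Male germ cells of newborn mice were compared between birth (P0) and 3 days of age (P3), over every gene with a normalized read count of at least 10 in at least 3 of the 6 libraries. That rule kept 21085 of the 55487 genes in the deposited table (38.0%), of which 16593 are protein coding and 1130 are lincRNA genes. It was met in all 6 libraries by 16354 genes, through the P0 libraries alone by 2131 genes and through the P3 libraries alone by 228 genes. The third-highest value was 10.1 in the gene just inside the rule and 9.92 in the gene just outside it.

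Both stages come from a mouse series on Morc1, a gene of the germ line whose loss disturbs male germ cells, in which RNA of testicular germ cells was sequenced from fetal life (E13.5 and E16.5) to P0 and P3. The cells carried Mvh-Venus, a transgene in which the regulatory region of the germ cell gene Ddx4 (also called Mvh) drives a fluorescent protein, and each stage has 3 libraries. The labels call the cells gonocytes of the testis at both ages, and titles and source names call all of them wild type. The genotype tag instead reads Morc1 (+/-) at P0 and Morc1 (-/-) at P3, and the strain, the number of animals per library and the sort gate are not given in the sources used here.

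Stage and tagged genotype therefore cannot be told apart in this comparison. Morc1 itself was measured at 7708, 7501 and 7279.9 in the P0 libraries and at 10929, 10584 and 11129 in the P3 libraries (log2 fold change 0.54, SE 0.07, adjusted p = 4.3e-06, and -0.30 with equal library totals). Reads of Morc1 were thus abundant in the libraries tagged as homozygous mutant, but a mutant allele can still be transcribed, so the level does not check the tag. Libraries are given here in the order 1, 3 and 4, the numbers in the column heads. These numbers do not match the replicate numbers of the titles. Nothing says that the 3 libraries of a stage came from separate animals. The p-values therefore measure only spread between libraries, estimated over all 12 libraries of the 4 stages.

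Gonocytes, also called prospermatogonia, are the germ cells of the fetal testis. They stop dividing in fetal life, rebuild their DNA methylation while arrested, and start to divide again in the days after birth, when they move to the basement membrane of the seminiferous cord and become the first spermatogonia. Part of these becomes the stem cell pool, which depends on GDNF from Sertoli cells acting through the receptors GFRA1 and RET, and part differentiates directly under retinoic acid. A dividing cell passes through a fixed order of events: D-type cyclins inactivate the retinoblastoma proteins, E2F factors then switch on genes of DNA replication, and the MuvB complex with MYBL2 and FOXM1 switches on genes of mitosis.

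The recovered reads numbered 43592337 to 47744848 in the P0 libraries and 41490756 to 44898400 in the P3 libraries, and 34207 to 34857 genes had a read at P0 against 25749 to 26285 at P3. The deposited size factors were 1.84 to 2.07 at P0 and 0.988 to 1.03 at P3, so the scaling bears on every fold change below. The median log2 fold change over all genes described, P3 minus P0, was 0.10 as deposited and -0.73 with equal library totals, a shift of -0.83. Median-of-ratios factors gave -0.33 and TMM factors gave -0.066. Counts under equal totals are therefore given beside those on the deposited scale. Summed levels of the Sertoli, Leydig, mast, peritubular, stromal and red blood cell markers were lower at P3, with equal totals too. Those of 7 macrophage markers overlapped, at 310 to 599 against 598 to 617 with 1 higher and 2 lower of the 5 described. Those of 6 endothelial markers were higher as deposited, although Cd93 was the 1 marker called higher and 3 were lower. With equal totals the endothelial sums were lower, with 1 marker higher and 4 lower. The summed level of 10 Sertoli cell markers was 15582 to 31414 at P0 and 6904 to 8693 at P3, 9 of the 9 described fell, and Cldn11 was at or under 3 reads in every P3 library. That of 7 Leydig cell markers was 1548 to 7376 against 499 to 527, with 6 of 6 lower and Insl3 and Lhcgr at or under 3 reads in every P3 library. That of 8 mast cell markers was 1665 to 3397 against 549 to 762, with 6 of 7 lower and Fcer1a and Ms4a2 at or under 3 reads at P3. Peritubular markers lay at 4278 to 4742 against 1346 to 1512, stromal markers at 3553 to 3791 against 1885 to 2411, and red blood cell markers at 1601 to 2563 against 295 to 546. The 6 germ cell markers summed to 140284 to 147403 at P0 and 254108 to 272220 at P3, with 5 higher and Mael lower. With equal totals these sums overlapped, at 224506 to 235918 and 229411 to 237223, though 5 markers were still called higher and 1 lower. Germ cell markers were thus abundant at both stages. In these bulk libraries, fewer cells of a type and less RNA per cell cannot be told apart.

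At P3, 8863 genes were higher than at P0 (42.0% of the genes described) and 7654 were lower (36.3%), by limma on log2(normalized count + 1) with a Benjamini-Hochberg adjusted p under 0.05. Together that was 78.3% of them. With equal library totals the split was 4560 higher and 12048 lower, so that 27.5% rather than 53.7% of the called genes were higher. That share was 40.5% under median-of-ratios scaling, and 69.8% once genes averaging less than 100 were left out. The libraries of the stages did not overlap for 17500 genes (83.0%). A gene list is therefore read below against these shares. Levels below are normalized read counts, and the number that follows a gene's levels is its log2 fold change, P3 minus P0. The stages overlapped for Ebp, Pmvk and Fos and for no other called gene named below. Of the genes written in the lists, Rrm2, Hjurp, Anapc11, Spred3, Gadd45b, Fgf4, Amt, Bak1 and Bcl2a1b were under the filter, and C19orf84 and Meiosin matched no gene of the table by name.

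Promoters of genes of DNA replication and of mitosis are known for different short elements, and those sequences are shown first because these groups hold the largest list medians of the cell cycle below. Elements were searched on both strands in RefSeq windows from 250 bases before to 50 bases after the annotated start (build GRCm38.p6, 1 window per gene): E2F-type sites (TTTCCCGC, TTTGGCGC or TTTCGCGC), the cell cycle homology region bound by MuvB (TTTGAA) and the CCAAT box (CCAAT) bound by NF-Y. E2F-type matches on opposite strands can overlap, as those at -153 and -149 in Mcm5 do. Of 14 windows of the licensing list, 8 held an E2F-type site (57.1%), against 1.91% of all 27025 windows and 2.97% of the windows of genes described. The E2F and cyclin list held one in 5 of 10 windows and the replication fork list in 29.6% of 27. The 160 bases before the start are printed 5' to 3' on the gene's strand, with matches in capitals, for Mcm5 (chr8:75109349-75109508, plus strand), Mcm6 (chr1:128359706-128359865, minus strand), Orc1 (chr4:108579294-108579453, plus strand) and Cdc6 (chr11:98907991-98908150, plus strand).
Mcm5: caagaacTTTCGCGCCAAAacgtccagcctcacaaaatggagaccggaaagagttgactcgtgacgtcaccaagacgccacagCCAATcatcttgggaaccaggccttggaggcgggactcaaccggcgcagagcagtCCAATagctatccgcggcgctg
Mcm6: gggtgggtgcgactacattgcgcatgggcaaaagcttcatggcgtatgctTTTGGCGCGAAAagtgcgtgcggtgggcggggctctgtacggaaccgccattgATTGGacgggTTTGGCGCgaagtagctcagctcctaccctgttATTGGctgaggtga
Orc1: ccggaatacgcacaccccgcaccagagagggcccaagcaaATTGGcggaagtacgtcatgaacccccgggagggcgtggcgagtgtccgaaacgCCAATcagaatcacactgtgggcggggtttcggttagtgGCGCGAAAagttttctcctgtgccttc
Cdc6: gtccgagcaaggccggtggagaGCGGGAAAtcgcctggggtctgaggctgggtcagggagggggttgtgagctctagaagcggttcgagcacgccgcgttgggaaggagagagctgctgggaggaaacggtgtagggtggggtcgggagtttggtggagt
The E2F-type matches begin at -153 and -149 in Mcm5, at -110, -106 and -47 in Mcm6, at -27 in Orc1 and at -138 in Cdc6, counted from the start. All but Cdc6 also hold CCAAT boxes.

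The cell cycle homology region was frequent in the mitotic lists, but the 2 elements did not split cleanly between replication and mitosis. E2F-type sites lay in 0 of 8 deoxynucleotide synthesis windows and 0 of 10 histone chaperone windows. They lay in 31.2% of 16 cohesin, condensin and topoisomerase windows, 12.1% of kinetochore windows and 11.8% of mitotic kinase windows. A cell cycle homology region lay in 17 of 22 windows of the spindle list (77.3%), within 50 bases of the start in 15 of them, against 18.1% of all windows and 13.0% of the windows of genes described. It lay in 47.1% of 17 windows of mitotic kinases and 36.4% of 33 kinetochore windows, and in 1 of 14 licensing windows (7.14%). A homology region and a CCAAT box stood together in 59.1% of spindle windows and in 5.26% of those of genes described. The next windows are of Cdk1 (chr10:69352913-69353072, minus strand), Ect2 (chr3:27153879-27154038, minus strand), Kif11 (chr19:37376222-37376381, plus strand) and Top2a (chr11:99024190-99024349, minus strand).
Cdk1: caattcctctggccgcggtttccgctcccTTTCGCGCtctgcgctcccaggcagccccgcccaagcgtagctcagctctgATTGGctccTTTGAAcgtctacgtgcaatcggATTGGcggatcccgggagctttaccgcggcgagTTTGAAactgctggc
Ect2: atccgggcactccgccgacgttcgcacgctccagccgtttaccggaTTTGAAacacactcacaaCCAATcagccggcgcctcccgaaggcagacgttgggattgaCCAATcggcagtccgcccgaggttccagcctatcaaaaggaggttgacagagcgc
Kif11: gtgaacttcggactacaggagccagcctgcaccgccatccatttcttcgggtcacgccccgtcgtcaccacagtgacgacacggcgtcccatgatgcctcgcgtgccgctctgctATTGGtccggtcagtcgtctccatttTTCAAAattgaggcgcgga
Top2a: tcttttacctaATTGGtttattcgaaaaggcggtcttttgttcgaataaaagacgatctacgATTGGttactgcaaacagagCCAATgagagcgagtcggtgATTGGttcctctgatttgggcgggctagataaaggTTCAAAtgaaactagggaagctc
Cdk1 holds both kinds, an E2F-type match at -131 and homology regions at -71 and -15. The homology regions begin at -114 in Ect2, -19 in Kif11 and -23 in Top2a. The windows printed were chosen after the matches were seen. A match is a run of letters and not a measured binding site. Among all 6345 windows of genes higher at P3 and 5237 of genes lower, homology regions lay in 12.6% and 14.1%, CCAAT boxes in 40.7% and 35.3%, and E2F-type sites in 4.60% and 1.36%.

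**Figure D1:**
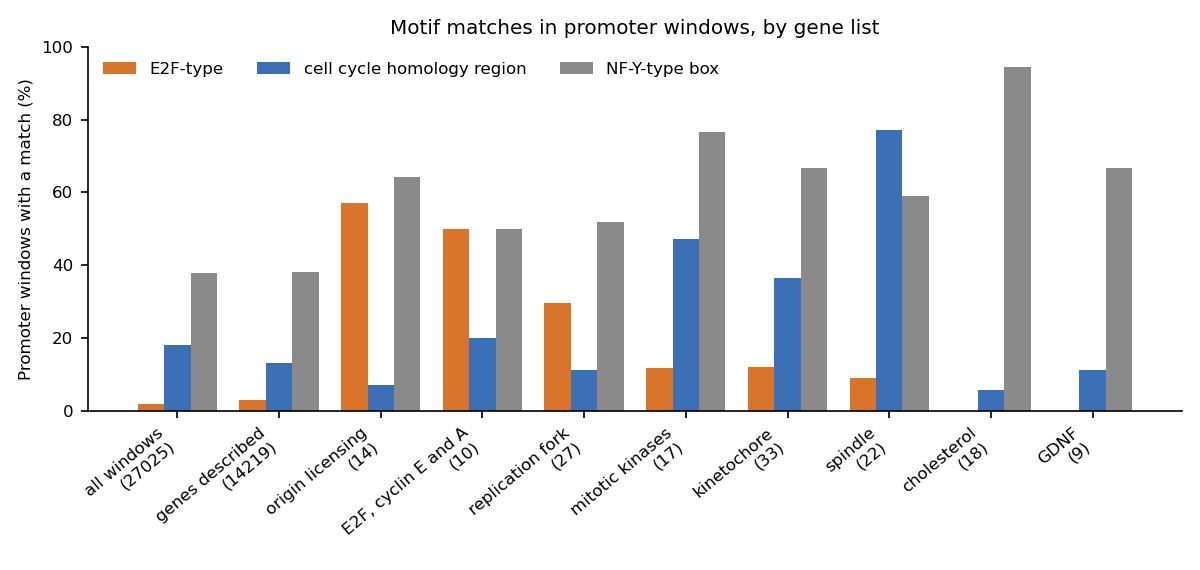
Share of promoter windows (vertical axis, %) with at least 1 match to an E2F-type site (orange), a cell cycle homology region (blue) or an NF-Y-type box, the CCAAT element (grey), for all windows, all genes described and 8 gene lists, with the number of windows in brackets. E2F-type matches are most frequent in the licensing list (57.1%) and homology regions in the spindle list (77.3%).

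D-type cyclins act at the start of the cycle. Of 5 genes in the list of D-type cyclins and their kinases, 4 rose, with 3 higher and 1 lower with equal totals, and the list median was 1.53. Ccnd1, cyclin D1, stood at 344, 283 and 312 at P0 and at 7891, 7139.5 and 7119 at P3, a log2 change of 4.56 (SE 0.13, adjusted p = 5.0e-14), and lies at chr7:144929931-144939925. Ccnd2, cyclin D2, stood at 7604, 6202 and 5396 at P0 and reached 39378, 37989.6 and 35523 at P3, 2.57 (SE 0.14, adjusted p = 3.8e-11). For both cyclins every P3 library exceeded every P0 library, where the stages did not overlap for 83.0% of all genes described. Ccnd3 rose by 1.53. The partner kinase Cdk4 was 13214, 13130.2 and 13106 at P0 and 23735, 22559.7 and 21939.5 at P3, a rise of 0.79 that became -0.051 with equal totals. Cdk6, the other partner, had overlapping libraries (664, 621 and 607 and 725, 625 and 547) and a change of -0.0050 (SE 0.12, adjusted p = 0.97), and was called lower with equal totals (-0.84). At E13.5, before the fetal arrest, Ccnd1 averaged 741 and Ccnd2 612, so the P3 means were the highest of the 4 stages.

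The inhibitors of cyclin-dependent kinases moved in both directions: 3 of 7 rose, 2 fell and 2 did not pass, with 1 higher and 4 lower with equal totals. Cdkn1c, which encodes p57, had been high at P0, at 5790.5, 6074 and 6429, and was 1498, 1485 and 1259 at P3, -2.11 (SE 0.09, adjusted p = 1.8e-12). Cdkn1a, which encodes p21, took the opposite course, from 192, 221 and 209 to 1589, 1506 and 1336, 2.83 (SE 0.12, adjusted p = 2.9e-12). No library of one stage reached the range of the other for either gene, as for 83.0% of all genes described. Among the INK4 inhibitors, which bind CDK4 and CDK6, Cdkn2c fell by 0.68 (log2). Cdkn2a and Cdkn2d rose by 0.68 and 0.60, and both were negative with equal totals (-0.15 and -0.24). Cdkn2a lost its call without P0 library 1 or P3 library 4 (adjusted p = 0.10 to 0.11). Cdkn2b (-0.085, adjusted p = 0.52) and Cdkn1b, which encodes p27 (-0.52, adjusted p = 0.081), did not pass, but both were called lower with equal totals (-0.92 and -1.36), and Cdkn1b also without P3 library 4 (adjusted p = 0.036). The fall of Cdkn1c ran beside that of the Sertoli and Leydig cell markers, and the part of those cells in it was not tested.

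In the retinoblastoma family 1 gene rose and 1 fell. Rbl1, which encodes p107, stood at 332, 342 and 272 at P0 and 1359.6, 1403 and 1524 at P3, 2.18 (SE 0.14, adjusted p = 3.1e-10), while Rbl2, which encodes p130, went from 194, 192 and 159.8 to 94, 104 and 80, -0.97 (SE 0.21, adjusted p = 4.6e-04). Rb1 did not pass (-0.13, adjusted p = 0.37) but was called lower with equal totals (-0.97). In this list of 10 genes, which also holds the MuvB core and its activators, 8 were higher and 1 was lower, and 5 were higher and 3 lower with equal totals. The activators moved furthest: Foxm1, a forkhead factor of mitotic genes, was 325, 287 and 225 and then 2033, 2064 and 2553 (2.99), and Mybl2 averaged 863 and then 6511 (2.92). All 14 members of the E2F list rose, 11 of them with equal totals, with a median of 1.58. E2f1 went from 2174, 2288 and 2075 to 10155, 9960.0 and 10801 (2.24), and E2f8, an atypical repressor of the family, from 52.7, 39.1 and 37.6 to 409, 483 and 569 (3.47). Cyclin A2, the S-phase and mitotic cyclin encoded by Ccna2, was 1408, 1014 and 993 and then 19727, 20319 and 18656, 4.12 (SE 0.10, adjusted p = 1.2e-14). The smallest changes in the list were those of E2f2, 0.82 and -0.014 with equal totals, and of Tfdp2, a partner of E2F proteins, 0.93 and 0.089 with equal totals, where neither was called.

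**Figure D2:**
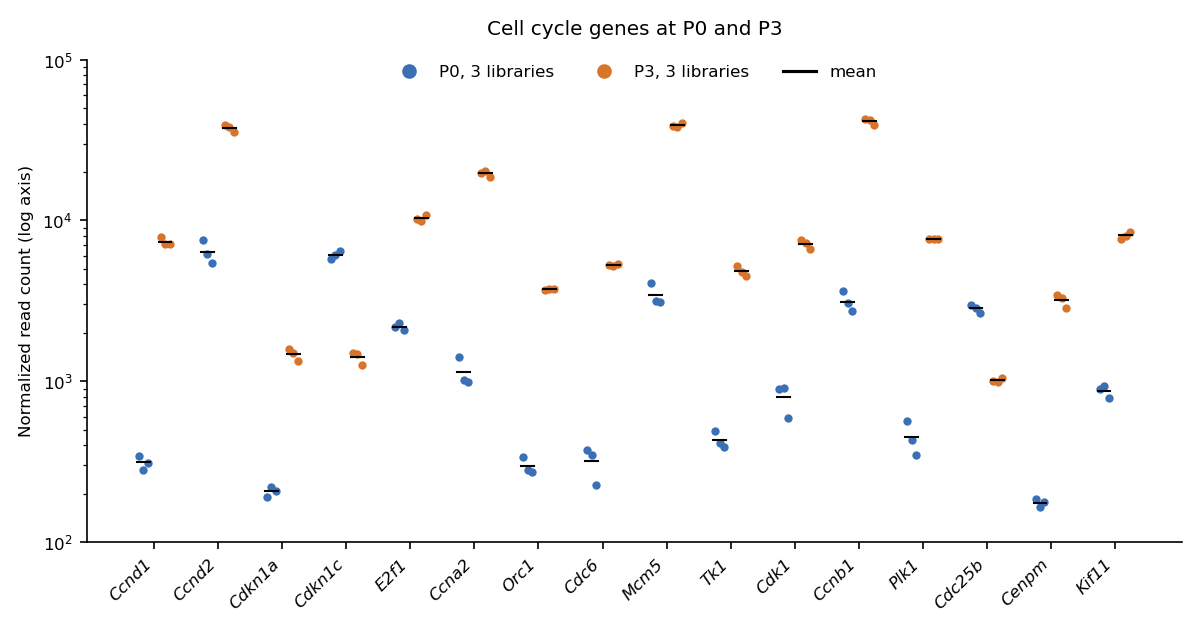
Normalized read count (vertical log axis) of 16 cell cycle genes in each of the 3 P0 libraries (blue) and 3 P3 libraries (orange), with the mean as a bar. The stages do not overlap for any of the 16, nor for 83.0% of all genes described. Cdkn1c and Cdc25b are the genes whose P3 libraries lie below their P0 libraries.

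Every gene of origin licensing rose. These genes load the MCM helicase onto replication origins, and 16 of 16 were higher at P3, also with equal totals, with a median of 2.57 against 0.10 over all genes. Cdc6, the loading factor, went from 375, 349 and 228 to 5314, 5193 and 5348, 4.09 (SE 0.15, adjusted p = 5.0e-13). Orc1, the largest subunit of the origin recognition complex, went from 337, 279 and 275 to 3708, 3750.4 and 3747, 3.65 (SE 0.10, adjusted p = 5.1e-14). Those were the largest rises in the list, and the other subunits Orc2 (1.53, 26.7% of its 50-base stretches shared with other genes) and Orc4 (1.39) were at its lower end, so subunits of 1 complex differed by over 2 on the log2 scale. Among the helicase subunits, chosen for mention after their values were seen, Mcm5 went from 4056, 3132 and 3118 to 38723, 37869.8 and 40420.3 (3.52) and Mcm6 from 11081, 10021 and 9378 to 45699, 45505 and 47141 (2.19). The licensing inhibitor geminin (Gmnn, also chosen after its values were seen) rose with them, from a mean of 746 to 5794 (2.95).

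At the replication fork, 34 of 35 genes were higher and none was lower, with 29 higher and 2 lower with equal totals, and the median was 2.10. Cdc45 and Gins1, parts of the active helicase, rose by 2.29 and 2.76. The largest rises were those of Tipin (2328, 2306 and 2185 to 19014, 18127 and 15707, 2.95) and Clspn (2.90), which protect the fork and signal its stalling. Pole, the catalytic subunit of the leading-strand polymerase, was the member that did not pass, at 2165, 2269 and 2175 and 2231, 2148 and 2404 (0.036, adjusted p = 0.65, and -0.80 with equal totals). Rnaseh2b, a subunit of the enzyme that removes RNA from DNA, rose by 0.30, or -0.54 with equal totals. Fen1 and Gins2 are in the list, but 76.7% and 65.4% of the 50-base stretches of their exons also occur in other genes, so their values are uncertain.

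Genes of deoxynucleotide supply and of histone handling were mostly higher too. All 10 described genes of deoxynucleotide synthesis were higher, with 7 higher and 1 lower with equal totals. Tk1, thymidine kinase, went from 492, 415 and 390.0 to 5205, 4782 and 4498 (3.48), Tyms, thymidylate synthase, from 739, 631 and 613 to 5823, 5601 and 4979 (3.05), and Rrm1, the large ribonucleotide reductase subunit, rose by 2.83. Rrm2b and Samhd1 rose least, by 0.54 and 0.63, and were at -0.30 and -0.21 with equal totals. The former is the reductase subunit used outside S phase and the latter degrades deoxynucleotides. Rrm2, the S-phase subunit, was under the filter, and the reason was not tested. Of 10 histone chaperone genes 9 rose, with 6 higher and 2 lower with equal totals. Exons of Chaf1a and Asf1a share 49.7% and 43.1% of such stretches with other genes. Chaf1b and Nasp rose most (3.27 and 2.76), the CAF-1 subunit Chaf1a rose by 2.18 and Asf1a by 0.51 (-0.33 with equal totals), and Atrx did not pass (0.20, adjusted p = 0.074, -0.64 with equal totals). Atrx did pass as higher without P3 library 1, with edgeR, with poscounts factors and with the 6 libraries of the 2 stages alone (adjusted p = 0.031 to 0.049). Of 18 genes of the replication checkpoint and of recombination repair 17 rose, with 15 higher and 2 lower with equal totals. Bard1, the BRCA1 partner, went from 152, 161 and 140.0 to 1623, 1652 and 1646 (3.43) and Rad51ap1 rose by 3.35. The apex kinase Atr did not pass (-0.014, adjusted p = 0.90, -0.85 with equal totals), whereas its relative Atm rose by 1.21 and Rbbp8, which starts the trimming of broken ends, rose by 0.33 (-0.51 with equal totals).

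Genes of mitosis made up the other large group. Of 21 mitotic cyclins, kinases and phosphatases, 19 rose and 2 fell, with 18 higher and 3 lower with equal totals, and the median was 2.60. Plk1, polo-like kinase 1, went from 568, 429.8 and 349 to 7708, 7633 and 7683, 4.12 (SE 0.12, adjusted p = 7.8e-14). Cdk1, the mitotic kinase itself, went from 901, 902 and 588 to 7530.4, 7247 and 6684, 3.19 (SE 0.12, adjusted p = 9.4e-13). Its partner Ccnb1, cyclin B1, went from 3618, 3049 and 2719 to 42846, 42221 and 39135 (3.73), and Aurkb, of the chromosomal passenger complex, rose by 3.90. In each of these 4 genes P0 library 4 was the lowest of its stage, and all P0 libraries stayed under the P3 range. Cdc25b, a phosphatase that activates CDK1, went the other way, from 2995, 2866 and 2659 to 1000.0, 996 and 1046, -1.48 (SE 0.09, adjusted p = 1.5e-10). The relatives Cdc25a and Cdc25c, chosen after their values were seen, rose by 2.60 and 1.26. Mad1l1, of the spindle checkpoint, was the second member that fell, by 0.20 (log2), a call lost without P0 library 3, P0 library 4, P3 library 1 or P3 library 3 (adjusted p = 0.084 to 0.11).

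All 38 described genes of the centromere and kinetochore rose, also with equal totals, with log2 fold changes from 1.23 to 4.17. Cenpa, the histone variant that marks centromeres, went from 1406, 1299 and 1137 to 16523, 15475 and 13476 (3.56). Cenpm went from 186, 166 and 177 to 3447, 3282 and 2838 and Birc5, survivin, from 355, 285 and 213 to 5367, 5286 and 4465, both 4.17. Cenpc1 and Cenpq rose least (1.23 and 1.27). All 26 genes of the spindle and cytokinesis rose, with 25 higher and 1 lower with equal totals. Kif2c, a microtubule depolymerase, went from 1120.0, 846 and 749.6 to 12863, 12473 and 12819.6 (3.83), and Kif20a and Kif11, motors of the midzone and of spindle poles, rose by 3.48 and 3.21. Numa1 was the exception with equal totals (0.41 as deposited, -0.43). Racgap1 and Kif23, the centralspindlin pair of cytokinesis, rose by 1.50 and 1.82, less than the list median of 2.29.

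Chromosome structure was less uniform. In the list of cohesin, condensin and topoisomerase genes, 18 of 22 rose, 1 fell and 3 did not pass, and 14 were higher and 7 lower with equal totals. Cdca5, which holds cohesin on chromatin, went from 801, 567 and 619.7 to 8004, 7567 and 7239 (3.53). Top2a, the topoisomerase of dividing cells, went from 2058, 1677 and 1324 to 17455, 18672 and 19509 (3.48), and Top2b, its form in non-dividing cells, from 707, 734 and 584 to 433, 506 and 414 (-0.58, SE 0.13, adjusted p = 5.5e-04). The core cohesin genes Smc1a and Smc3 rose by 0.58 and 0.80, and were at -0.26 and -0.041 with equal totals. The cohesin loader Nipbl did not pass (-0.15, adjusted p = 0.082) but was called lower with equal totals (-0.99). All 18 genes of the anaphase-promoting complex and its regulators rose, with 11 higher and 2 lower with equal totals. The inhibitor Fbxo5 and the ubiquitin-conjugating enzyme Ube2c rose most (2.83 and 2.74). The subunit Anapc1 rose by 0.93, a call lost with equal totals (0.085). The subunit Anapc2 and the enzyme Ube2s rose least (0.48 and 0.37), at -0.36 and -0.47 with equal totals.

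**Figure D3:**
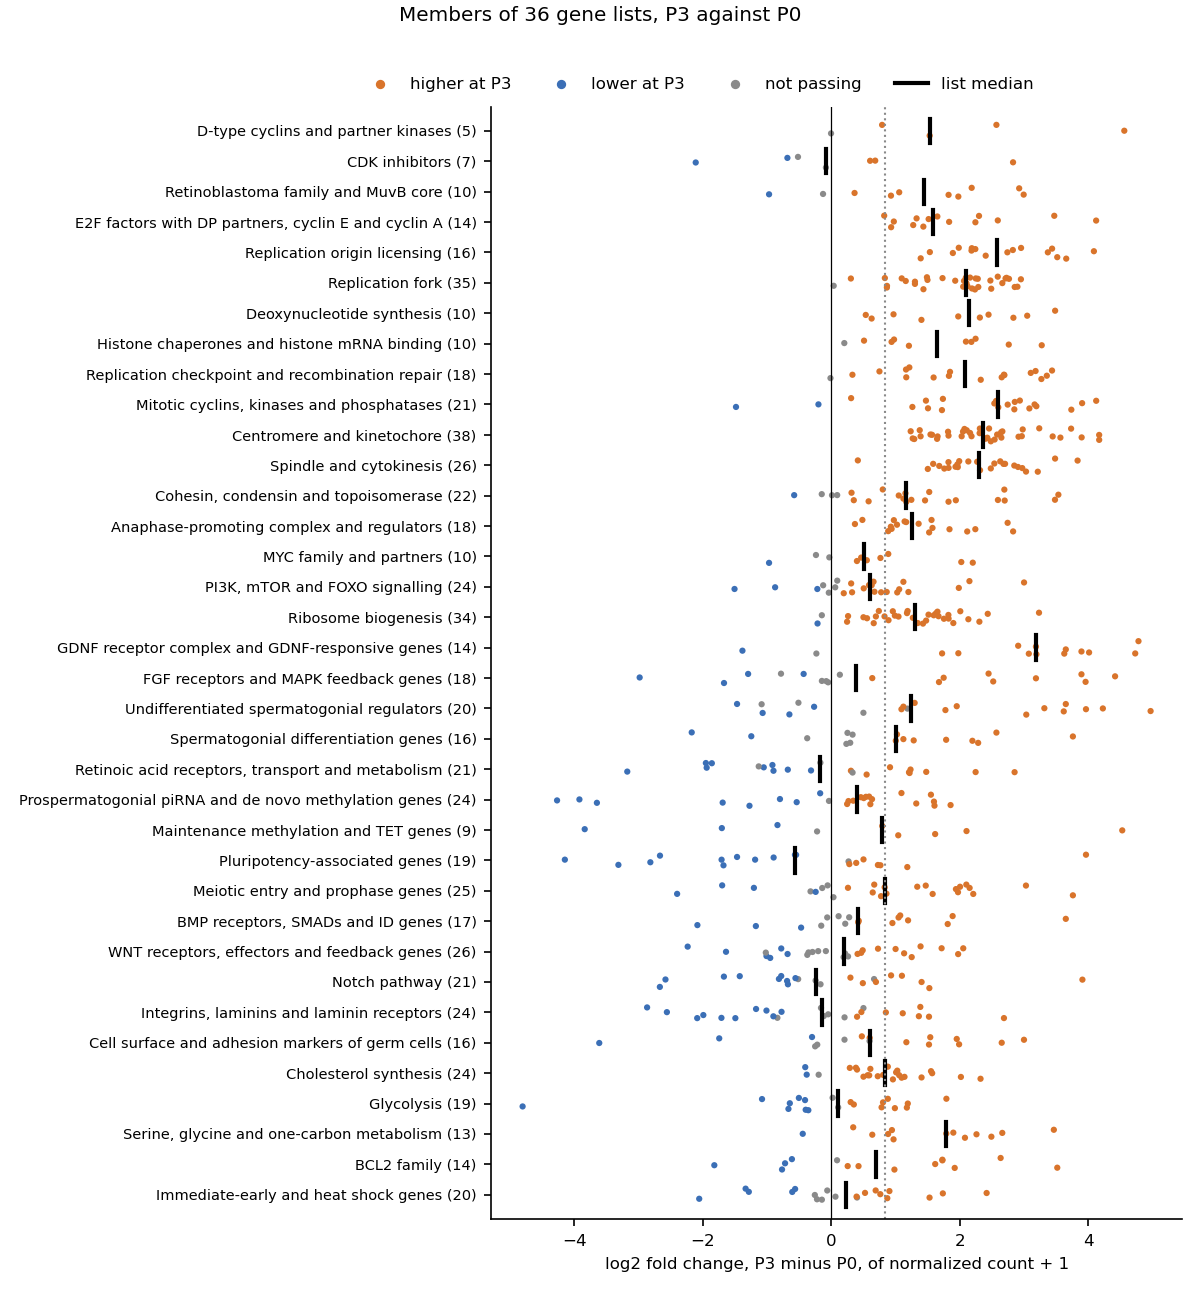
The log2 fold change, P3 minus P0 (horizontal axis), of every described member of 36 gene lists, with its call in colour, the list median as a black bar and the number of members in brackets. The dotted line lies to the right of 0 by as much as the median over all genes is lower with equal library totals. On the deposited scale the licensing, kinetochore and spindle lists lie wholly to the right of 0 (Numa1 of the spindle list does not with equal totals), and retinoic acid, pluripotency and Notch genes lie on both sides.

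The same lists can be followed back to earlier stages, as levels with no test and on the deposited scale only. List levels at the 4 stages were not computed with equal totals, where the order of E16.5 and P0 may differ. Factors of the P0 libraries are 1.84 to 2.07 as deposited and 1.15 to 1.26 with equal totals. Those of the E16.5 libraries are 1.05 to 1.26 and 1.08 to 1.20. The pattern asked for was a level low in the arrested stages and high on either side, that is, means at E13.5 and at P3 that both exceed those at E16.5 and P0. That held for 28.0% of all genes described. It held for 16 of 16 licensing genes, 32 of 35 replication fork genes (91.4%), 24 of 26 spindle genes (92.3%) and 32 of 38 kinetochore genes (84.2%). The median level of mitotic kinases was 11548 at E13.5, lower at E16.5 (2041) and P0 (1446), and stood at 7675 at P3. For 17 of these 21 kinase genes the highest of the 4 stages was E13.5 and for 2 it was P3. Among all 21085 genes described, the highest stage was E13.5 for 6414 and P3 for 4444. Ccna2 shows the course, with a mean of 20198 at E13.5, then 2653, 1138 and finally 19567. Ube2c and Fbxo5 stayed well under their E13.5 means of 25431 and 9109, at 6983 and 2381 at P3, while Cdc6 (E13.5 mean 3604) exceeded it.

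**Figure D4:**
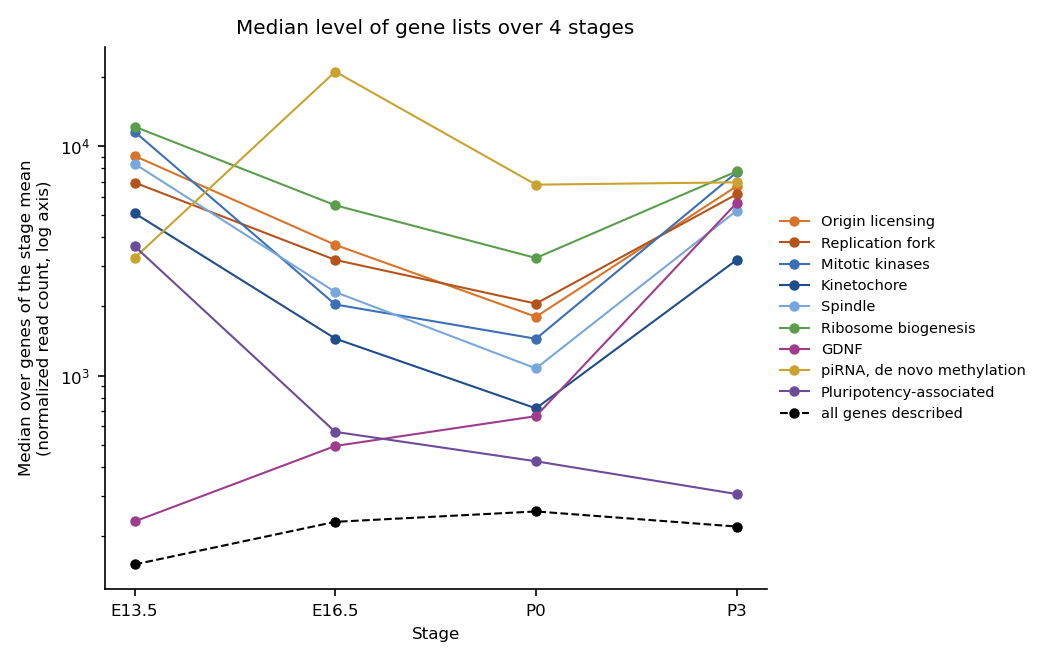
Median over the members of each list of the stage mean (vertical log axis, normalized read count) at the 4 stages. On the deposited scale the replication and mitotic lists are lowest at P0 and higher at P3. On the same scale the GDNF list is highest at P3, and the pluripotency-associated list is highest at E13.5. Medians with equal library totals were not computed.

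Of 34 genes of ribosome biogenesis 32 were higher and 1 lower, with 21 higher and 8 lower with equal totals, and the median was 1.31, or 0.47 with equal totals. Noc3l and Dkc1, factors of rRNA processing and modification, rose by 3.23 and 2.43. Of the RNA polymerase I subunits, Polr1b rose by 1.18 and Polr1a fell by 0.22, a call lost without P0 library 3, P0 library 4, P3 library 1 or P3 library 3 (adjusted p = 0.064 to 0.25). Mybbp1a, which binds that machinery, did not pass (-0.15, adjusted p = 0.11), but was called lower with equal totals (-0.99) and without P3 library 4 (adjusted p = 0.016). An E-box (CACGTG), the element bound by MYC and MAX and searched in the same way, lay in 5 of 29 ribosome biogenesis windows (17.2%), 9.36% of those of genes described and 7.24% of all windows. In the MYC list 7 of 10 rose and 1 fell, but 2 were higher and 6 lower with equal totals. Mycn, the family member of embryonic and germ cells, went from 1161, 1105 and 884 to 4917, 4460.5 and 5033 (2.20, SE 0.14, adjusted p = 4.4e-10), against 22183 at E13.5. Myc had overlapping libraries (294, 213 and 173 and 208, 211 and 149.8, a change of -0.24, adjusted p = 0.45) and was called lower with equal totals (-1.08). Of the MAX-binding antagonists, Mxd3 rose by 2.02 and Mxd1 fell by 0.97. In PI3K and mTOR signalling 17 of 24 rose and 3 fell, with 4 higher and 12 lower with equal totals. Pdk1, written in this list, encodes pyruvate dehydrogenase kinase, an inhibitor of that mitochondrial enzyme and not the PI3K pathway kinase of similar name. It went from 992, 829 and 922 to 7151, 7417 and 7322 (3.0), and Eif4ebp1, the translation inhibitor controlled by mTOR, rose by 2.15. Tsc1, an inhibitor of mTOR, went from 4114, 3738 and 3803 to 1203, 1455 and 1454 (-1.51). The catalytic subunits Pik3ca and Pik3cb stood at 0.060 (adjusted p = 0.56) and 0.66, and at -0.78 and -0.18 with equal totals. Ddit4, a stress-induced mTOR inhibitor, fell by 0.88.

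The genes of GDNF signalling had the highest median of the 36 lists, 3.19, and 12 of 14 rose, also with equal totals. The receptor Gfra1 (chr19:58235604-58455909) went from 598, 611 and 516 to 14102, 14832 and 16872, 4.73 (SE 0.16, adjusted p = 2.2e-13). Its signalling partner Ret went from 1070.4, 1113 and 1114 to 12314, 12665 and 16008, 3.62 (SE 0.11, adjusted p = 6.1e-14). Gfra1 had averaged 23.2 at E13.5 and 173 at E16.5, so it was far above its fetal level at P3. Lhx1, a transcription factor induced by GDNF, went from 133, 112 and 100.4 to 3076, 3220.1 and 3209 (4.78), and Etv5 and Bcl6b, further GDNF-induced factors chosen after their values were seen, went from 1257 to 18691 (3.89) and from 348 to 5614 (4.01) in their means. Tspan8, a surface protein of stem cell-enriched spermatogonia, fell from 1331, 1359.6 and 1209 to 498, 548 and 449 (-1.38), and T, the brachyury gene, did not pass (-0.23, adjusted p = 0.20, -1.07 with equal totals).

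Genes of FGF signalling moved in both directions. Of 18 genes 9 rose, 4 fell and 5 did not pass, with 8 and 8 with equal totals. Spry4, a feedback inhibitor of receptor signalling, went from 128, 127 and 87.4 to 2335, 2456 and 2459 (4.42, SE 0.28, adjusted p = 3.9e-10), and Etv4, a factor induced by the same pathway, from 123, 169.5 and 126 to 2139.6, 2116 and 2218 (3.96, SE 0.15, adjusted p = 5.9e-13). Its relative Etv1 went from 300.2, 300.0 and 275 to 40.7, 35.4 and 32.4 (-2.98, SE 0.14, adjusted p = 7.4e-12), so genes of 1 transcription factor family moved in opposite directions. The receptor Fgfr1 fell by 0.43 and Fgfr2 did not pass (-0.080, adjusted p = 0.67) but was called lower with equal totals (-0.92). The ligand Fgf2 was low at both stages and fell by 1.30 (adjusted p = 0.023), a call lost without P0 library 1, P0 library 3 or P3 library 1 (adjusted p = 0.058 to 0.09).

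Among 20 regulators of undifferentiated spermatogonia 12 rose, 4 fell and 4 did not pass, with 12 and 6 with equal totals. Zbtb16, which encodes PLZF, went from 172, 141 and 222 to 2113, 2202 and 2164, 3.62 (SE 0.27, adjusted p = 3.4e-09). Nanos3, an RNA-binding protein, went from 38.1, 20.1 and 43.9 to 1087, 1097 and 950.5, 4.97 (SE 0.20, adjusted p = 1.1e-12). Foxc2, a factor of quiescent stem cells in the adult, went from 97.1, 72.8 and 72.9 to 1494, 1369 and 1708, 4.23 (SE 0.45, adjusted p = 2.2e-07). These 3 genes had been measured at 26.6, 2079 and 7.07 at E13.5, so Nanos3 returned toward a level seen before and the other two had been near absent. Id4, a marker of stem cell activity counted in the BMP list as well, went from 756, 719 and 645 to 9284, 8721 and 8578 (3.65). Sall4 rose by 1.30. Utf1, a chromatin factor of early spermatogonia, fell from 3654, 3448 and 3618 to 1400.3, 1206 and 1274 (-1.47), after 42814 at E13.5 and 20106 at E16.5. Upp1 fell by 1.07. Nanos2, chosen after its values were seen, rose from a mean of 10.2 to 108 (3.31), well under its E13.5 mean of 655, and 47.4% of its 50-base stretches occur in other genes.

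Genes of spermatogonial differentiation were present at the same time: 9 of 16 rose, 2 fell and 5 did not pass, with 8 and 6 with equal totals. Stra8, induced by retinoic acid before meiosis and in differentiating spermatogonia, went from 328, 267 and 276 to 4296, 3858 and 3656, 3.76 (SE 0.14, adjusted p = 4.4e-13). Kit, the stem cell factor receptor, went from 1232, 1403 and 1209.5 to 2588, 3198 and 3632, 1.28 (SE 0.12, adjusted p = 3.1e-08), and mast cells, whose markers were lower at P3, also express it. Stra8 at P3 was above its means of 125 at E13.5 and 436 at E16.5, while Kit was below its E13.5 mean of 7276. Kitl, the ligand of KIT made by Sertoli cells, fell by 1.25 and the homeobox gene Esx1 from 163, 166 and 177 to 27.1, 41.2 and 43.5 (-2.17). The fall of Kitl ran beside that of the Sertoli cell markers, and their part in it was not tested.

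**Figure D5:**
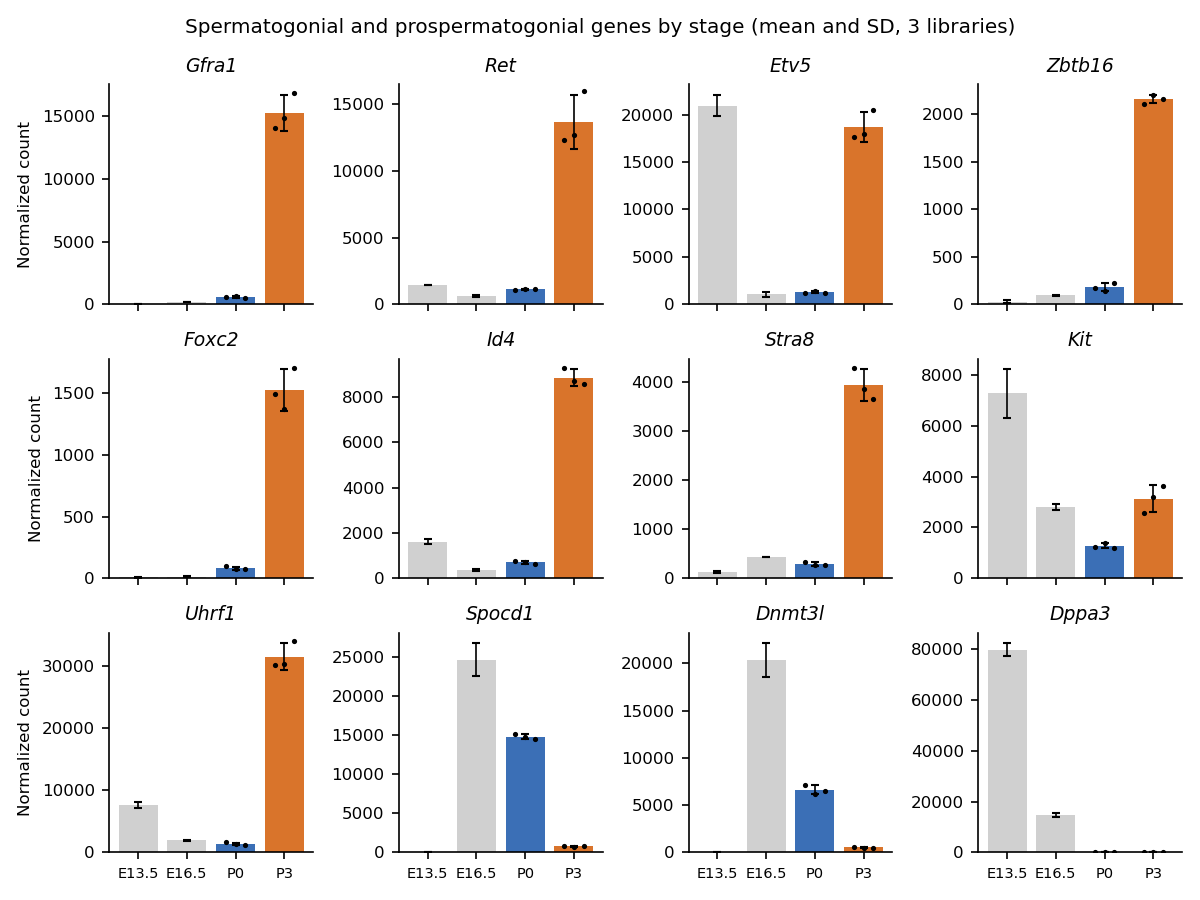
Normalized read count (vertical axes, from 0) of 12 genes at the 4 stages, as mean with SD over 3 libraries, with each P0 and P3 library as a point. Gfra1, Zbtb16, Foxc2 and Stra8 are highest at P3, and Spocd1, Dnmt3l and Dppa3 are highest at a fetal stage.

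Retinoic acid genes moved in both directions, 9 higher and 9 lower of 21, and 5 and 13 with equal totals. Cyp26a1, an enzyme that degrades retinoic acid, went from 52.2, 37.5 and 32.8 to 284, 310.3 and 293 (2.85), and Dhrs3, which turns retinal back into retinol, from 198, 190.2 and 167 to 975, 789 and 887 (2.24). Aldh1a2, which makes retinoic acid, went from 6342, 5729 and 5654 to 1491, 1461 and 1623 (-1.95, SE 0.07, adjusted p = 7.3e-13). Lrat, which stores retinol as esters, fell from 96.6, 69.6 and 86.9 to 9.69, 5.89 and 10.1 (-3.18, named after its values were seen). Of the receptors, Rarb went from 227, 258 and 281 to 82.4, 43.2 and 79 (-1.94, SE 0.46, adjusted p = 0.0011), and Rara rose by 0.30, or -0.54 with equal totals, a call lost without P0 library 4, P3 library 1, P3 library 3 or P3 library 4 (adjusted p = 0.059 to 0.22). Other genes share 34.1% of the stretches of Rarb. Aldh1a1, chosen after its values were seen and a Sertoli cell enzyme in the fetal and newborn testis, fell by 1.86. Sertoli cell markers fell in the same libraries, and their part in the falls of the enzymes was not tested.

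Genes of fetal transposon silencing went both ways. Of 24 genes of the prospermatogonial piRNA pathway and de novo methylation, 15 were higher and 8 lower, and 6 were higher and 18 lower with equal totals. Spocd1, which links nuclear piRNAs to DNA methylation, went from 15212, 14829 and 14519 to 762, 679 and 882, -4.27 (SE 0.27, adjusted p = 2.8e-10). Dnmt3c, the rodent methyltransferase of young transposons, went from 613, 550.5 and 556 to 32, 44.2 and 35.4, -3.92 (SE 0.27, adjusted p = 7.8e-10), with 23.6% of its 50-base stretches also in other genes. Dnmt3l, its cofactor and chosen after its values were seen, went from 7139, 6195 and 6521 to 564, 514 and 502 (-3.65). Piwil4, the nuclear piRNA binder, fell by 0.80, and its fetal partner in piRNA production, Piwil2, stood at 19944, 21542 and 18734 and 18289, 18585 and 21918 and did not pass (-0.037, adjusted p = 0.73), but was called lower with equal totals (-0.88). Tdrd12 and Asz1, of the cytoplasmic piRNA machinery, rose by 1.86 and 1.60. The highest of the 4 stages was E16.5 for 21 of the 24 genes, against 3753 of the 21085 genes described.

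Uhrf1 and Dnmt1, which maintain methylation, rose. Uhrf1, which brings DNMT1 to newly replicated DNA, went from 1603, 1329 and 1197 to 30251, 30377 and 34049.5, 4.53 (SE 0.09, adjusted p = 5.1e-15), and its E13.5 mean had been 7681. Dnmt1 went from 3020.0, 2734 and 2800.4 to 11538, 11585 and 13734 (2.10). Of the TET dioxygenases, which oxidise methylcytosine, Tet2 went from 198, 346 and 273 to 14.5, 17.7 and 21.3 (-3.84, SE 0.25, adjusted p = 4.8e-10) and Tet1 from 263, 328 and 309.9 to 65.9, 87.4 and 131 (-1.70). In the list as a whole 5 of 9 rose and 3 fell, with 3 higher and 4 lower with equal totals. Dnmt3b, listed with differentiation and chosen after its values were seen, rose from a mean of 407 to 1982 (2.28).

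Pluripotency-associated genes were the list with the lowest median, -0.57, with 11 of 19 lower and 7 higher, and 14 and 2 with equal totals. Nanog, already low at P0 (63.7, 64.1 and 60.8), was at 1.94, 2.95 and 3.04 at P3, where every library held at most 3 reads, so that it was at least 21.2-fold lower. Nanog met the rule through the P0 libraries alone, so a low P3 level is part of that definition. Dppa3, also called Stella, went from 151, 195 and 199.8 to 21.3, 11.8 and 20.2 (-3.31), after 79747 at E13.5. Tdgf1, the co-receptor Cripto, fell by 2.82. Against these, Tcl1, a cofactor of AKT, went from 918, 824 and 819.5 to 14086, 13019 and 12849.9 (3.96, SE 0.08, adjusted p = 5.1e-15), and Lin28b, a blocker of let-7 maturation, rose by 1.18. Pou5f1, which encodes OCT4, went from 1105, 1026 and 1027 to 1853, 1754 and 1755, 0.76 as deposited and -0.077 with equal totals.

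Genes of meiosis, which male germ cells enter only later, were also measured. Of 25 genes 17 rose and 4 fell, with 11 and 9 with equal totals. Tex11, an X-linked gene of crossover formation, went from 1803, 1805 and 1583 to 14529.7, 14197 and 13579.7 (3.03, SE 0.08, adjusted p = 3.3e-14). Spo11, which makes the breaks of meiotic recombination, went from 1311, 1067 and 1171 to 173, 279.9 and 227 (-2.40, SE 0.18, adjusted p = 3.6e-09), and Meiob, which acts on those breaks, fell by 1.70. The E13.5 means of Tex11 and Spo11 were 8049 and 266.

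Other signalling pathways were mixed. In the BMP list 9 of 17 rose and 3 fell (4 and 10 with equal totals). The receptor Bmpr1a and the transducer Smad5 rose by 1.81 and 1.89. Smad9 fell from 370.2, 339 and 419 to 88.2, 84.5 and 90.1 (-2.08), Id2 fell by 1.17 and Bmpr1b did not pass (-0.064, adjusted p = 0.80) but was called lower with equal totals (-0.90). In the WNT list 11 of 26 rose and 6 fell (5 and 16 with equal totals). Among the Frizzled receptors, Fzd7 and Fzd5 rose by 2.05 and 1.97, and Fzd1 and Fzd2 fell by 0.95 and 1.01, the former call being lost without P0 library 1, P0 library 3, P3 library 1 or P3 library 3 (adjusted p = 0.067 to 0.18). The feedback gene Nkd2 fell from 1593, 1403 and 1269.9 to 459, 461 and 441 (-1.64), and Lgr5, receptor of the R-spondins, fell by 2.24. In the Notch list 8 of 21 rose and 9 fell (3 and 13 with equal totals). The feedback gene Nrarp went from 70.5, 65.2 and 57.9 to 969, 937 and 1033 (3.91), but 77.3% of its 50-base stretches occur in other genes. The effector Hes5 and the receptors Notch1 and Notch2 rose by 1.52, 1.40 and 0.49, and the ligand Dll1 and the receptor Notch3 fell by 2.67 and 2.58. With equal totals Notch1 stood at 0.57 and Notch2 at -0.35, neither of them called, and the call of Notch2 was also lost without P0 library 3 (adjusted p = 0.052).

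Of 24 integrins, laminins and laminin receptors, 8 rose and 10 fell (4 and 17 with equal totals), so 18 were called, a share near the 78.3% of all genes. Itgb5 went from 1979, 1564 and 1378 to 9898, 10064 and 11434 (2.69) and Itga6, a subunit of the laminin receptor used to enrich spermatogonial stem cells, from 1379, 1329.7 and 1209 to 3449, 3777 and 4014 (1.52, SE 0.11, adjusted p = 1.4e-09). Bcam, another laminin receptor, fell from 515, 486 and 317 to 54.3, 46.2 and 77.9 (-2.87), and Lama4, of blood vessel and interstitial laminins, from 1055, 929 and 908 to 162, 133 and 199 (-2.56). Itga1 and Itga2 did not pass (-0.12 and -0.84, adjusted p = 0.42 and 0.12) but were called lower with equal totals (-0.96 and -1.66). Of 16 surface markers of germ cells 9 rose and 3 fell (7 and 8 with equal totals). Mcam went from 3676, 3300.1 and 3258 to 25583, 27483 and 28667 (3.0, SE 0.09, adjusted p = 5.1e-14), Cd9 from 3296, 3276 and 3232 to 21487, 21047 and 19135 (2.65) and Epcam from 3457, 3189.8 and 3393 to 13942, 13602 and 12319.5 (1.99). All are adhesion or membrane proteins of spermatogonia. The neural adhesion molecule L1cam went from 383, 433 and 475 to 31, 29.5 and 43.5 (-3.61) and Cd24a fell by 0.30. Beside the laminin and Notch genes named here, 9 of 9 Sertoli, 4 of 5 peritubular, 3 of 7 stromal and 3 of 6 endothelial markers fell. Of all genes described 36.3% were lower, a share near that of the stromal markers. Of the endothelial markers 1 rose, and their summed level was higher at P3 as deposited and lower with equal totals. The part of those cells in the falls of the laminin and Notch genes was not tested.

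Serine and one-carbon metabolism feeds nucleotide synthesis: 12 of 13 rose, with 8 higher and 3 lower with equal totals and a median of 1.79. Shmt2, the mitochondrial serine hydroxymethyltransferase, went from 2156, 1889 and 1764 to 21526, 20697 and 21616, 3.46 (SE 0.08, adjusted p = 9.8e-15). Its cytosolic form Shmt1 rose by 2.66, and Phgdh and Psat1, the first steps of serine synthesis, by 1.90 and 1.79, with 47.8% of the stretches of Phgdh shared with other genes. Gcsh, of glycine cleavage, rose least (0.34, -0.50 with equal totals). In cholesterol synthesis 21 of 24 rose and 2 fell, but 8 rose and 9 fell with equal totals. Lss, which makes lanosterol, went from 1188, 1229 and 1237 to 4814, 4723 and 5260.4 (2.02). Hmgcs1, an early enzyme of the pathway, rose by 0.29 and was at -0.55 with equal totals. Ebp and Pmvk fell by 0.41 and 0.38, each with overlapping libraries. Ebp lost its call without P0 library 1, P0 library 3, P3 library 1 or P3 library 4 (adjusted p = 0.073 to 0.26) and Pmvk without P0 library 1, P0 library 4, P3 library 3 or P3 library 4 (adjusted p = 0.067 to 0.20). Windows of 17 of the 18 cholesterol genes in the promoter table held a CCAAT box (94.4%, against 38.2% of the windows of genes described). As an example chosen after its matches were seen, the window of Mvd (chr8:122443423-122443582, minus strand, GRCm38.p6, CCAAT boxes in capitals at -60 and -27), an enzyme that rose by 1.57, reads as follows.
Mvd: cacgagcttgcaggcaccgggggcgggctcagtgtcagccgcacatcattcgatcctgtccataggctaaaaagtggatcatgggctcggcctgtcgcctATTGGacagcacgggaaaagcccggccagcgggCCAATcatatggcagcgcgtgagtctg

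Glycolysis genes moved in both directions: 9 of 19 rose and 8 fell (4 and 11 with equal totals), with a median of 0.11 beside 0.10 over all genes. The glucose transporter Slc2a1 went from 1897, 1493 and 1486 to 5423, 5549 and 5792 (1.79), and Slc2a3 fell by 0.51. Gpi1 rose by 1.19. Ldha, lactate dehydrogenase A, went from 19896, 17163 and 16627 to 8756, 8352 and 8232 (-1.08). Eno2, the neuronal enolase, went from 133, 109.8 and 127 to 11.6, 5.89 and 0 (-4.80, SE 0.66, adjusted p = 5.3e-06), and the change was -5.56 without P3 library 1, -3.73 without P3 library 4.

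Genes of cell death and of the acute stress response were followed as a check on the condition of the cells. Of 14 BCL2 family genes 9 rose and 4 fell (6 and 7 with equal totals). The death-promoting Bik went from 70, 90.2 and 74.3 to 966, 897 and 839 (3.52) and Bid from 1166, 980.3 and 1028 to 6632, 6447 and 6587 (2.63), while the neuronal Hrk fell by 1.82 and Bok by 0.61. Of the survival genes, Bcl2 was low at both stages and fell by 0.72, a call lost without any 1 of the 6 libraries (adjusted p = 0.061 to 0.12), and Bcl2l1, which encodes BCL-XL, rose by 0.25, or -0.59 with equal totals. Of 20 immediate-early and heat shock genes 9 rose and 5 fell (3 and 13 with equal totals). Fos, induced within minutes of handling cells, was 10544, 9929 and 5864 at P0 and 5269, 5120.4 and 6417 at P3 (-0.61, SE 0.19, adjusted p = 0.0084), with P0 library 4 inside the P3 range and the call lost without P0 library 1 (adjusted p = 0.057). Fosb and Atf3 fell by 2.06 and 1.33, and Hspa8 (39.4% of its stretches shared) and Btg2 rose by 1.73 and 1.53. P0 library 4 was the lowest of its stage for Fos, Fosb and Atf3, and also for the sums of Sertoli, Leydig and mast cell markers.

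Over all genes, the largest rises and falls were taken among called genes whose stages did not overlap, that averaged 100 or more in one of them and that carry no predicted or clone name. None of the rises named here belongs to a cell cycle list, but only the 10 largest were taken. Ccnd1, at 4.56, came close to Hoxb6, at 4.58. Foxl1, a forkhead factor, went from 4.18, 3.8 and 2.9 to 217, 204 and 197, 5.49 (SE 0.41, adjusted p = 2.6e-09). Its P0 values were all under 10, so it met the rule through the P3 libraries alone, as 228 genes did. For such genes a low P0 level is part of that definition. Tnfrsf25, a death domain receptor, went from 45.4, 41.3 and 42 to 1556, 1356 and 1305 (5.0). Cd93, a surface protein also of endothelial cells, went from 18.3, 27.7 and 43.4 to 1023, 917 and 938 (5.04, SE 0.57, adjusted p = 4.6e-07). Of 6 endothelial markers, Cd93 was the 1 that rose and 3 fell, with a summed level of 1145 to 1332 at P0 and 1615 to 1685 at P3, or 1833 to 2152 and 1408 to 1522 with equal totals. Hoxb6 went from 16.2, 12.5 and 15.9 to 353, 375 and 399.8 (4.58) and Cd7 from 11.5, 5.43 and 9.65 to 232, 246 and 231 (4.64). Nanos3, Lhx1 and Gfra1 were in this group too. Abi3 rose by 4.95, but 66.7% of its 50-base stretches occur in other genes.

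The largest falls were of genes that were all but silent at P3. Those under 10 in every P3 library, such as Tbx5 and Dcc, met the rule through the P0 libraries alone. That held for 2131 genes, against 228 through the P3 libraries alone, and for these a low level in the other stage is part of that definition. Tbx5, a T-box factor, went from 472, 403 and 416 to 4.85, 0 and 0, -7.90 (SE 0.60, adjusted p = 3.2e-09). Dcc, the netrin receptor, went from 498, 571 and 625 to 2.91, 6.87 and 0 (-7.49), Lrrc23 from 1244, 1247 and 1199 to 14.5, 6.87 and 6.07 (-7.01) and the homeobox gene Otx2 from 422, 439.6 and 378 to 0, 1.96 and 10.1 (-7.01), after 1845 at E13.5. Single P3 libraries set the size of these falls: Tbx5 stood at -8.75 without P3 library 1, Dcc at -8.15 without P3 library 3, -6.67 without P3 library 4, and Otx2 at -6.17 without P3 library 1, -7.91 without P3 library 4. Where every P3 library held at most 3 reads the fall is a lower bound, computed against 3 reads per library: at least 79-fold for Car2, 72.9-fold for Casp1, 69.6-fold for Obox6, 43.9-fold for Rtl9 and 42.2-fold for Lipo1, which shares 44.4% of its stretches with other genes. Tpsb2, a tryptase of mast cells, went from 1296, 939 and 655 to 0, 129 and 0 (-7.52, SE 1.23, adjusted p = 3.3e-05), so 1 P3 library had a level the other two lacked, and the fold change was -6.35 without P3 library 1, -9.86 without P3 library 3, -6.35 without P3 library 4. DESeq2 gave -4.49 and did not call it (adjusted p = 0.0501). It is 1 of the 8 mast cell markers given above.

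Among the most abundant transcripts, ranked by normalized count per kilobase of exon, Ubb, Rpl4, Eef1a1, Mael and Calm2 led at P0. At P3 the germ cell tubulins Tuba3a and Tuba3b led, before Ubb, Eif5a and Ftl1. Tuba3a went from 13297 to 118482 per kilobase on that scale, or from 21431, 18631 and 20133 to 187322, 176494 and 172552 normalized counts (3.16, SE 0.10, adjusted p = 7.8e-14). The pair resemble each other, with 35.3% of the 50-base stretches of Tuba3a and 29.5% of those of Tuba3b found in other genes, so their separate values are uncertain. The same holds for Ftl1 (58.4%), Ubb (48.1%) and Eef1a1 (40.4%). Eif5a, a translation factor, and Ftl1, a ferritin chain, rose by 1.71 and 1.38, Calm2 by 1.18, and Eef1a1 and Mael fell by 0.18 and 0.17. These last calls were lost without P0 library 1 or P3 library 4 (adjusted p = 0.076 to 0.083) for Eef1a1 and without P0 library 1, P0 library 3 or P3 library 4 (adjusted p = 0.072 to 0.12) for Mael. Ubb and Rpl4 rose by 0.55 and 0.22, and were at -0.30 and -0.62 with equal totals.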

How the data were processed

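Libraries were made from germ cell RNA with a SMART-seq v4 and a TruSeq mRNA kit, per the labels' protocols. Per the submitters' processing notes, the tools were bcl2fastq 2.20, cutadapt 1.18, HISAT2 2.1.0, featureCounts 1.5.2 and DESeq2 1.26.0, with build mm10/GRCm38. The authors deposited 1 table of signal values, which are read counts per gene divided by a size factor per library (RLE, per its name). All values were whole multiples of 1 read within a tolerance of 0.001, so reads and factors were recovered. Strand setting and the handling of reads that match several genes are not given in the sources used here.

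The main test was limma 3.58.1 (lmFit, eBayes with trend) on log2(value + 1), with the 12 libraries of the 4 stages sharing 1 estimate of the spread, the contrast P3 minus P0, and Benjamini-Hochberg adjustment over the 22384 genes with a value of at least 10 in at least 3 of the 12. Fold changes are on that scale, which understates the change of low genes. Alternatives were other scalings, pseudocounts (0.1, 10), filters, fewer libraries, edgeR 4.0.16 and DESeq2 1.42.0 on the recovered reads. On simulated counts for 22384 genes with 200 changed 4-fold, limma recovered 85.5% of the changed genes and called 8 others. Each P0 and P3 library held at least 41490756 reads. A level of at most 3 reads per library was taken as a floor.

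Genes and lists were chosen with earlier results of these data known, so list counts are a description. Named genes are, for lists of at most 8, every member. For longer lists they are the first 2 members as written and the 2 highest and 2 lowest changes among members that averaged 100 or more at either stage. To these were added the 10 highest and 10 lowest changes over all genes, Morc1, and the 5 most abundant genes per kilobase at each stage. Exceptions are marked in the text, and 4 further genes are left out of the text. Shared exon stretches and promoter windows came from the mm10 reference and RefSeq tables (GRCm38.p6), with R 4.3.3, Python 3.11.15, pandas 2.3.3 and matplotlib 3.10.9.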

Additional observations from a re-analysis of the deposited data

How the results depend on the processing

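With equal library totals 4560 genes were higher and 12048 lower. Without a filter 12591 genes were lower, once genes averaging under 100 were left out it was 3402, and a required change of 1 on the log2 scale left 5432 genes higher. With equal totals the genes higher numbered 1 of the CDK inhibitors, 5 of the retinoblastoma and MuvB list, 11 of the anaphase-promoting complex list, 2 of the MYC, 4 of the PI3K, 21 of the ribosome biogenesis, 5 of the retinoic acid, 6 of the piRNA, 3 of the maintenance methylation, 11 of the meiotic, 4 of the BMP, 5 of the WNT, 8 of the cholesterol, 4 of the glycolysis and 3 of the immediate-early list, and 17 of the integrin list were lower. With median-of-ratios factors the genes higher numbered 1 of the CDK inhibitors, 3 of the MYC, 10 of the PI3K, 5 of the retinoic acid, 7 of the piRNA, 7 of the WNT and 5 of the immediate-early list. Of the 16517 genes called, 12214 kept call and direction with equal totals, and 1391 were called in the opposite direction. edgeR called 16782 genes and DESeq2 16713, and leaving out 1 library left 15743 to 16006. With equal totals the sign turned for Anapc2 (-0.36), Asf1a (-0.33), Atrx (-0.64), Bcl2l1 (-0.59), Cdk4 (-0.051), Cdkn2a (-0.15), Cdkn2d (-0.24), E2f2 (-0.014), Gcsh (-0.50), Hmgcs1 (-0.55), Morc1 (-0.30), Notch2 (-0.35), Numa1 (-0.43), Pik3ca (-0.78), Pik3cb (-0.18), Pole (-0.80), Pou5f1 (-0.077), Rara (-0.54), Rbbp8 (-0.51), Rnaseh2b (-0.54), Rpl4 (-0.62), Rrm2b (-0.30), Samhd1 (-0.21), Smc1a (-0.26), Smc3 (-0.041), Ubb (-0.30) and Ube2s (-0.47). With median-of-ratios factors it turned for Atrx (-0.24), Bcl2l1 (-0.19), Gcsh (-0.10), Hmgcs1 (-0.15), Numa1 (-0.028), Pik3ca (-0.38), Pole (-0.40), Rara (-0.14), Rbbp8 (-0.11), Rnaseh2b (-0.14), Rpl4 (-0.22) and Ube2s (-0.074). Elsewhere it turned for genes that did not pass: Atr (0.015 with poscounts factors, -0.093 to 0.057 over single libraries left out), Bmpr1b (-0.12 to 0.031 over single libraries left out), Cdk6 (0.024 with poscounts factors, 0.0040 with edgeR, 0.0040 with DESeq2, -0.11 to 0.095 over single libraries left out), Fgfr2 (-0.26 to 0.030 over single libraries left out), Pik3ca (-0.11 with TMM factors), Piwil2 (-0.12 to 0.015 over single libraries left out) and Pole (-0.14 with TMM factors, -0.0089 to 0.072 over single libraries left out). Cdkn1b (-0.69), Itga1 (-0.29), Mybbp1a (-0.32), Nipbl (-0.32), Piwil2 (-0.21) and Rb1 (-0.30) were called lower with TMM factors. Bcl2l1 (0.082), Cdkn2a (0.51), Hmgcs1 (0.12), Notch2 (0.32), Rara (0.13), Rbbp8 (0.16), Rnaseh2b (0.13), Rpl4 (0.051) and Ube2s (0.20) lost their call with TMM factors. Atr (-0.45), Bmpr1b (-0.50), Cdk6 (-0.44), Cdkn1b (-0.96), Cdkn2b (-0.52), Fgfr2 (-0.52), Itga1 (-0.56), Itga2 (-1.27), Mybbp1a (-0.59), Myc (-0.68), Nipbl (-0.59), Piwil2 (-0.48) and Rb1 (-0.57) were called lower with median-of-ratios factors. Anapc2 (0.042), Asf1a (0.068), Cdkn2a (0.25), Cdkn2d (0.16), E2f2 (0.38), Morc1 (0.097), Notch2 (0.051), Rrm2b (0.097), Smc1a (0.14) and Ubb (0.10) lost their call with median-of-ratios factors. With a pseudocount of 0.1 the call was lost for Bcl2, Ebp, Fgf2, Fzd1, Hrk, Polr1a, Rara and Rarb (adjusted p = 0.0505 to 0.137). With no filter the call was lost for Ebp, Fzd1, Mad1l1, Pmvk, Polr1a and Rara (adjusted p = 0.0566 to 0.0771). With poscounts factors the call was lost for Bcl2, Ebp, Mad1l1, Mael, Pmvk and Polr1a (adjusted p = 0.0522 to 0.0873). With the 6 libraries alone the call was lost for Ebp, Pmvk and Polr1a (adjusted p = 0.053 to 0.0615). With the block the call was lost for Bcl2, Ebp and Fzd1 (adjusted p = 0.0504 to 0.0655). The numbers in the column heads (1, 3 and 4) are not the replicate numbers of the titles. Deviations of same-numbered P0 and P3 libraries correlated at -0.036 to 0.0020 over 22384 genes, and those of other pairs at -0.021 to 0.032. With 3 libraries per stage this cannot exclude that a number marks a shared origin, and the main test made no pairing. No P0 or P3 library correlated best with its own number. A replicate block on them, chosen after seeing the data, called 16438 genes, of which 16361 are shared with the fit without the block. Of 4170 values of single genes over the alternatives, 3984 kept direction and side of the threshold. Depth limits what can be said of genes at or under 3 reads per library, and each group has 3 libraries.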
